A study of Mus musculus with 16 samples.

Results

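The galectin family was followed here in bulk RNA-seq of 16 MC38 tumors. The members were 7 galectin genes (Lgals1, Lgals2, Lgals3, Lgals4, Lgals7, Lgals8 and Lgals9) and Lgals3bp, matched by symbol, which made 8 of the 53465 genes in the count table. MC38 is a colon adenocarcinoma line of C57BL/6 mice, and all tumors grew under the skin of female wild-type mice of 6 to 8 weeks of age. Each mouse received 200 µg of antibody on day 16 and again on day 20, and tumors were taken on day 21. The control group (IgG control, n = 8) received an isotype antibody, and the other mice received an antibody against the checkpoint receptor PD-1 (aPD-1, n = 8). The study named 2 of the aPD-1 tumors responders and 6 non-responders, by staining of CD8 T cells in the treated tumors, so a gene of T cells cannot be an independent readout of that split. The line is the only tumor model used, and each library held RNA of whole tissue from 2 sections of 100 µm of 1 tumor, with all cell types mixed.

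Galectins are lectins that share a carbohydrate recognition domain and bind galactose-containing glycans, above all N-acetyllactosamine chains on cell surface proteins. They leave the cell without a classical secretion signal, cross-link glycoproteins into lattices, and are known in tumors for effects on T cell survival, on adhesion and on blood vessels. Prototype galectins (Lgals1, Lgals2, Lgals7) carry a single domain in each chain. The chimera galectin (Lgals3) joins the domain to a long proline-rich tail, and tandem repeat galectins (Lgals4, Lgals8, Lgals9) carry 2 different domains in 1 chain. Lgals3bp is no galectin but a secreted glycoprotein that galectins bind.

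Total counts per tumor lay between 26603477 and 39948874. In 3 tumors the mitochondrially encoded genes took more than 5% of the counts, IgG control replicate 1 with 7.60% and non-responder replicates 9 and 14 with 6.00% and 5.73%, against 2.52% to 3.25% in the other 13. These 3 libraries were also the 3 with the lowest totals. Immunoglobulin genes took 0.403% and 0.257% of the counts in the responders and at most 0.0042% elsewhere. Of the epithelial markers that a colon carcinoma label would call for, Cdx2 was at 0 CPM (counts scaled by TMM to a common library size) in 15 of 16 tumors, Vil1 did not pass 0.283 CPM, and Krt20 did not pass 0.709 CPM. Cdh1 was at 3.75 to 9.78 CPM in every tumor. Krt8, Krt18 and Epcam reached at most 1.80 CPM outside the responders but were at 31.9 and 13.1, 33.3 and 11.3, and 10.6 and 5.32 CPM in them.

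Lgals1 was by far the most abundant member. On the TPM scale, a transcript abundance that divides by the length of the exons so that genes can be compared, Lgals1 lay at 6746 ± 1488 TPM (SD, n = 16 tumors) and Lgals3 at 802 ± 205 TPM. Lgals3bp followed with 199 ± 67.0 TPM, Lgals9 with 126 ± 26.5 TPM and Lgals8 with 72.8 ± 10.3 TPM. The ranges over tumors of Lgals1 (3744 to 8809 TPM) and Lgals3 (454 to 1213 TPM) did not meet, whereas those of Lgals3bp (91.5 to 314 TPM), Lgals9 (66.8 to 159.8 TPM) and Lgals8 (50.1 to 86.5 TPM) each overlapped with the next. Lgals4 (median 2.63 TPM) and Lgals7 (median 0.719 TPM) were low in most tumors, and the mean of Lgals7, 6.21 TPM, was set by 3 of them. Lgals2 was not detected above 3 counts in any tumor. With the length of the longest transcript in place of all exons, the order by mean level was the same.

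**Figure D1:**
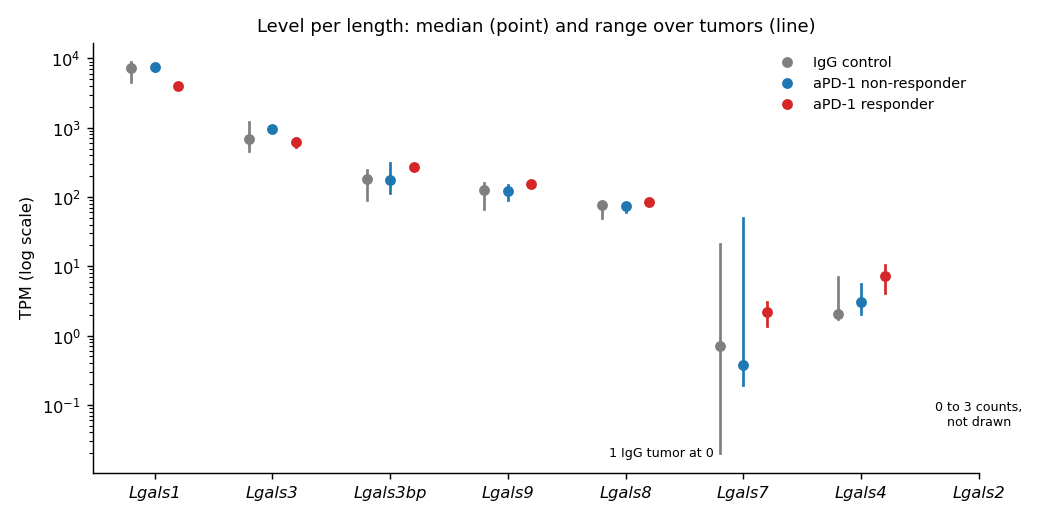
Level per length of each member (TPM, logarithmic axis) in the 3 groups, as the median (point) and the range over tumors (line); Lgals2, with 0 to 3 counts in every tumor, is not drawn. Lgals1 lies above every other member in each group, and the line of Lgals7 spans from 0 to 50.1 TPM over tumors of the IgG control and non-responder groups.

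Of the summed TPM of the 7 galectins, Lgals1 made up 87.9% ± 3.44 (SD, n = 8) in IgG controls, 86.4% ± 1.54 (n = 6) in non-responders and 82.1% ± 0.641 (n = 2) in responders. Lgals3 made up 9.54% ± 3.54, 11.2% ± 1.14 and 12.7% ± 1.33. The sum itself was 7860.1 ± 1352 TPM in IgG controls, 8586 ± 599 TPM in non-responders and 4856 ± 454 TPM in responders. Lgals1 alone was at 7426 TPM in non-responders and 3985 TPM in responders. The log2 ratio of Lgals3 to Lgals1 overlapped between the groups, with means of -2.69 ± 0.162 (SD, n = 2) in responders and -2.96 ± 0.170 (n = 6) in non-responders (exact permutation p = 0.143, two-sided).

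Lgals1 was lower in the responders than in every other tumor. This prototype galectin, known for inducing death of activated T cells, lies at chr15:78926725-78930465 (+, GRCm38). It was at 1016 and 1171 CPM in the responders. The non-responders ran from 1835 to 2572 CPM with a median of 2334, and the IgG controls from 1852 to 2732 CPM with a median of 2083. The highest responder thus lay below the lowest of the other 14 tumors, and in CPM the gap was wide. On the TPM scale, which is not scaled by TMM, the gap was narrow. Responder replicate 16 was at 4227 TPM and IgG control replicate 3 at 4596 TPM. Against non-responders, the log2 fold change was -1.06 (SE 0.17, edgeR quasi-likelihood adjusted p = 3.1e-04), a level 2.09-fold lower. Against IgG controls it was -0.95 (SE 0.17, edgeR adjusted p = 4.8e-04). The exact permutation test on log2 CPM gave p = 0.0357 and p = 0.0222 (two-sided), in each case the smallest p that these group sizes allow. Non-responders and IgG controls overlapped in Lgals1, with a log2 fold change of 0.11 (SE 0.11, edgeR adjusted p = 0.987). The study had singled out Lgals1 in these same tumors, so its call is no independent evidence.

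Markers of other cells were higher in the responders, where Lgals1 was lower. The 8 B cell markers summed to 1245 and 310.4 CPM there against at most 7.97 CPM elsewhere. The 8 T cell markers summed to 211 to 229 CPM against 8.78 to 32.5 CPM, and the 6 fat cell markers to 1241 and 230.4 CPM against 16.1 to 83.8 CPM. In bulk tissue, fewer cells of a type and less RNA per cell cannot be told apart. The part of these cells in the lower Lgals1 was not tested. Few counts were assigned to processed copies of Lgals1: Lgals1-ps1 and Lgals1-ps2 held 0 to 3 counts in every tumor, and every count of Lgals1 was whole. These are counts after RSEM had shared out reads between similar genes. They therefore do not give the number of reads that could match both Lgals1 and a copy.

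**Figure D2:**
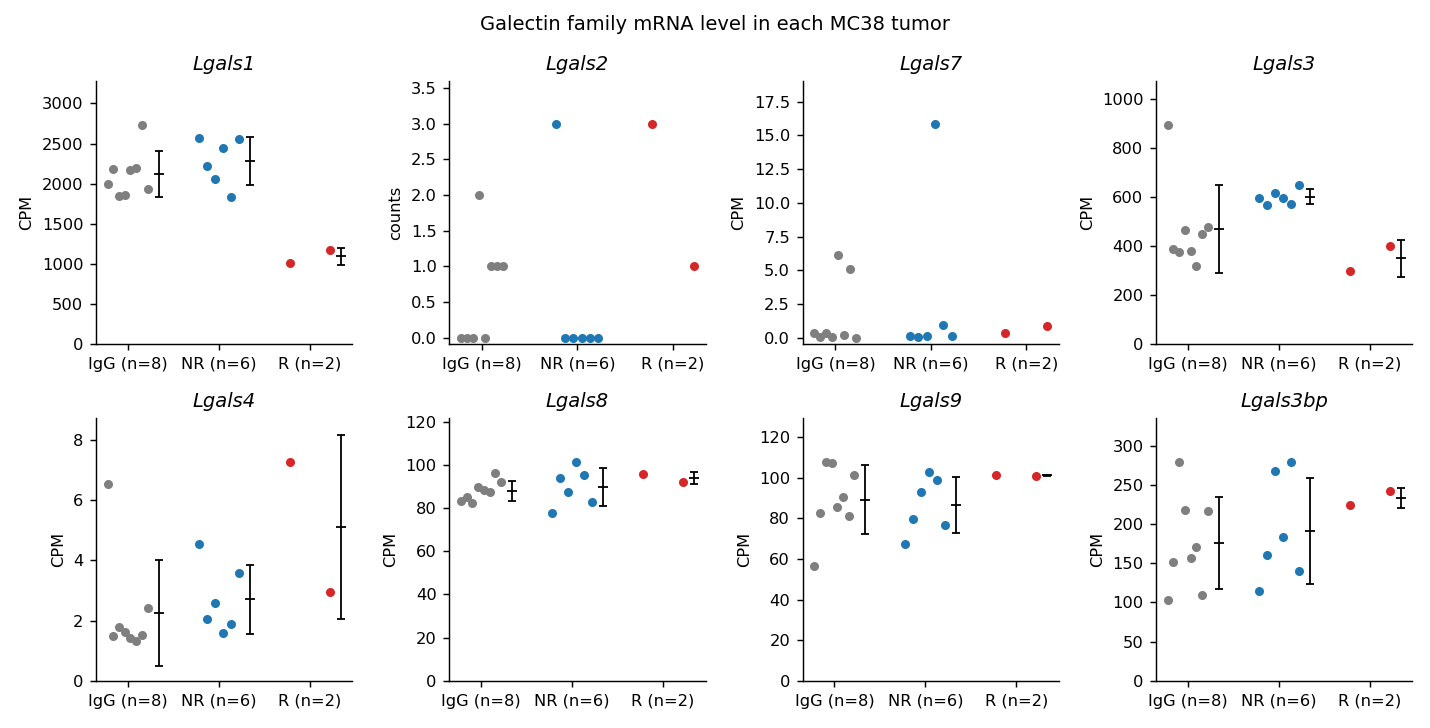
Level of each of the 8 members in each tumor, in CPM (Lgals2: counts), for IgG control (grey), non-responder (NR, blue) and responder (R, red) tumors, with mean and SD as black bars except for Lgals2 and Lgals7. The 2 responders lie below all other tumors in Lgals1, the 6 non-responders are closely grouped in Lgals3, and single tumors stand apart in Lgals3, Lgals4 and Lgals7.

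Lgals3, the chimera galectin made by macrophages and many carcinoma cells, lies at chr14:47367751-47386160 (+). It was at 298 and 403 CPM in the responders. The non-responders were closely grouped, from 569.8 to 652 CPM with a median of 597, a coefficient of variation of 5.11%. The IgG controls ran from 318 to 895 CPM with a median of 419.7 and a coefficient of variation of 38.4%. Both responders lay below all 6 non-responders but within the range of the IgG controls. Responders against non-responders gave a log2 fold change of -0.78 (SE 0.29), which did not pass (edgeR adjusted p = 0.0736), while the exact permutation test gave p = 0.0357, the smallest it allows. It passed at an adjusted p of 0.0394 in DESeq2, the tool of the study, at 0.0045 in edgeR with only these 2 groups in the fit, and at 0.0019 in edgeR without the 3 tumors of high mitochondrial share. It did not pass with other scalings or filters (edgeR adjusted p up to 0.0949), nor with any single non-responder left out. Over left-out tumors the log2 fold change ran from -1.06 to -0.65. Against IgG controls, the responders were at a log2 fold change of -0.42 (SE 0.28, edgeR adjusted p = 0.318).

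Between non-responders and IgG controls, a single control tumor moved the size of the difference in Lgals3 but no call. All 8 controls in, the log2 fold change was 0.36 (SE 0.18, edgeR adjusted p = 0.987), with an exact permutation p of 0.0440 (two-sided). The highest control, replicate 1 at 895 CPM, is the tumor with the highest mitochondrial share. Without it the other 7 controls ended at 479 CPM and all 6 non-responders began at 569.8 CPM, with means of 409 ± 58.2 (SD, n = 7) and 601 ± 30.8 CPM (n = 6). The exact permutation p was then 5.8e-04, the smallest possible, and the log2 fold change 0.57 (SE 0.10), which still missed the threshold over all genes (edgeR adjusted p = 0.0542). Leaving out all 3 tumors of high mitochondrial share gave means of 589.8 and 409 CPM with no overlap (exact permutation p = 0.0061, n = 4 and 7), and an edgeR adjusted p of 0.149.

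**Figure D3:**
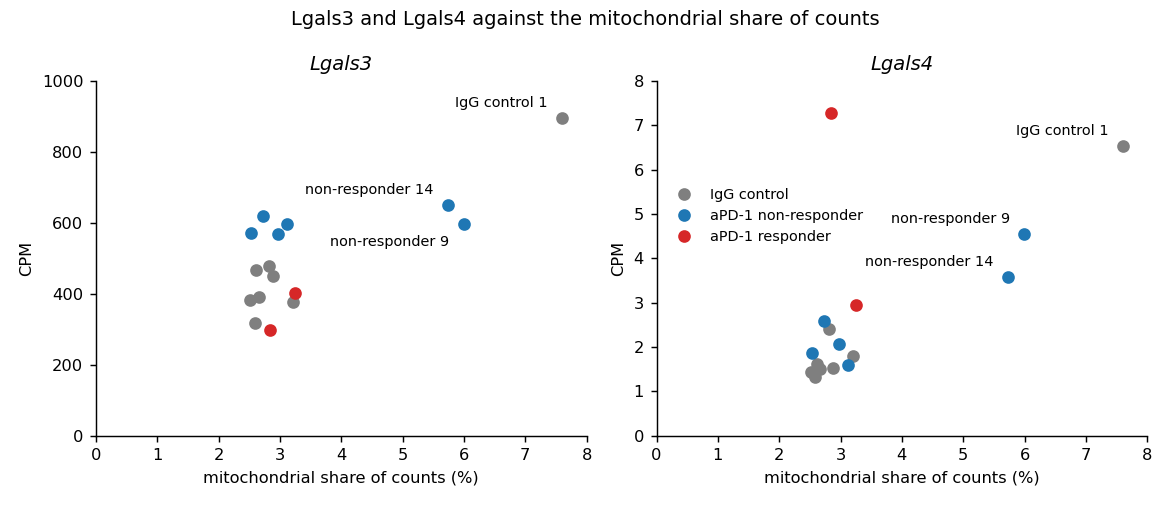
Lgals3 (left) and Lgals4 (right) in CPM against the share of counts from mitochondrially encoded genes (%), each point a tumor, colored by group. The 3 tumors above 5% are named: IgG control 1 is the highest tumor in Lgals3 at 895 CPM, and among the 13 other tumors the 4 non-responders lie above all controls in Lgals3.

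Lgals4, a tandem repeat galectin known from the lining of the gut, lies at chr7:28833854-28841708 (+) and was scarce, with 48 to 246 counts per tumor. The responders were at 7.27 and 2.95 CPM. The non-responders ran from 1.59 to 4.55 CPM with a median of 2.33, and the IgG controls from 1.32 to 6.54 CPM with a median of 1.57. The highest values outside the responders, 6.54, 4.55 and 3.59 CPM, belonged to the 3 tumors of high mitochondrial share, and the other 11 of those tumors stayed at or below 2.59 CPM. Against non-responders the log2 fold change of the responders was 0.92 (SE 0.55, edgeR adjusted p = 0.287), and against IgG controls 1.18 (SE 0.52, edgeR adjusted p = 0.122). Without IgG control replicate 1, the second rose to 1.57 (SE 0.36) and passed (edgeR adjusted p = 0.0033). Without the 3 tumors of high mitochondrial share both passed, at log2 fold changes of 1.27 (edgeR adjusted p = 0.0085) and 1.57 (edgeR adjusted p = 6.7e-04). Much of the rise was responder replicate 15: without it the log2 fold changes were 0.05 and 0.31. Lgals6, a near copy of Lgals4 known from some mouse strains, was looked for by symbol and had no entry in the count table.

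Lgals7 and Lgals2, the other prototype galectins, were near the floor in most tumors. Lgals7 is known as a galectin of stratified epithelium and lies at chr7:28863853-28866284 (+), 22.1 kb from Lgals4. It stood at 15.8 CPM in non-responder replicate 12, and at 6.11 and 5.09 CPM in IgG control replicates 5 and 7. The other 11 tumors of these groups stayed at or below 0.977 CPM, and the responders were at 0.384 and 0.872 CPM. The same 3 tumors held the highest sums of 8 keratinocyte markers, 55.0, 38.7 and 33.6 CPM, against 4.90 to 14.2 CPM in the other 13 tumors. Krt14, the keratin of basal keratinocytes, was at 36.5, 22.2 and 22.8 CPM in them and at or below 6.43 CPM elsewhere. Krt5, another keratin of the list, separated them less, at 7.87, 7.23 and 2.19 CPM in them and 2.63 CPM in responder replicate 15. Skin lies over a tumor under the skin, and whether the sections held skin was not tested. The groups did not differ in Lgals7 beyond their spread: responders against non-responders gave a log2 fold change of -2.19 with an SE of 2.34, which turned to 1.15 without replicate 12 (edgeR adjusted p = 0.590 and 0.711). Lgals2, at chr15:78850860-78855529 (-), is 71.2 kb from Lgals1 on the chromosome, yet it held 0 to 3 counts in each tumor while Lgals1 held at least 34354. Lgals2 was left out by the filter on low counts, and its exact permutation p of 0.0444 between responders and IgG controls (two-sided) compares 3 and 1 counts with 0 to 2 counts, too few to give a level.

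Lgals8 was the least variable member. This tandem repeat galectin, which marks damaged endosomes for autophagy, lies at chr13:12439415-12464944 (-). It was at 95.8 and 91.99 CPM in the responders, from 77.9 to 101.5 CPM with a median of 90.7 in non-responders, and from 82.4 to 96.0 CPM with a median of 87.9 in IgG controls. The groups overlapped, and the 3 log2 fold changes lay between 0.03 and 0.09 with SEs of 0.07 to 0.11 (edgeR adjusted p of 0.587 or more). The lowest value of all, 77.9 CPM, belonged to non-responder replicate 9, a tumor of high mitochondrial share.

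Lgals9 and Lgals3bp rose and fell together over the IgG control and non-responder tumors. Lgals9 is a tandem repeat galectin that binds TIM-3 (Havcr2) on T cells, and both genes are known to be induced by interferons. Lgals9 lies at chr11:78962974-78984946 (-) and Lgals3bp at chr11:118392751-118402092 (-). The responders were at 101.3 and 100.9 CPM of Lgals9. The non-responders ran from 67.5 to 102.9 CPM (median 86.3) and the IgG controls from 56.7 to 107.8 CPM (median 87.9). For Lgals3bp the responders were at 224 and 243 CPM, the non-responders between 115 and 279.7 CPM (median 172) and the IgG controls between 104 and 279 CPM (median 164). No group stood apart in either gene, and the log2 fold changes of the responders, 0.23 (SE 0.20) and 0.18 (SE 0.19) for Lgals9 and 0.29 (SE 0.35) and 0.41 (SE 0.34) for Lgals3bp against non-responders and IgG controls, did not pass (edgeR adjusted p of 0.437 or more).

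The promoters of these genes are shown because interferon-stimulated response elements have the core GAAANNGAAA or GAAANNNGAAA, and because the pair varied together. RefSeq promoter sequences (GRCm38.p6, 250 bases before to 50 after the start) were at hand for 7 of the 8 members, Lgals1 being the exception. Both cores were searched on both strands of these 300 bases. The starts are those of RefSeq and can differ from the ends of the gene intervals given above. For Lgals3, Lgals7 and Lgals8 the 250 bases before the start lay inside those intervals, so the 5′ ends of the intervals were not searched. The match of Lgals3bp also lay inside its interval. A match was found in Lgals9 and in Lgals3bp and in none of the other 5 (Lgals2, Lgals3, Lgals4, Lgals7, Lgals8), while 5.99% of 32851 promoters of the same length hold either core, 3.44% the first and 2.75% the second. Lgals9 has 2 matches to the first core, TTTCTTTTTC on the opposite strand at 55 to 46 bases before the start and a further match just after the start. Lgals3bp has 1 match to the second core, GAAAATCGAAA, at 17 to 7 bases before the start. A match is a run of letters and no proof of a bound site. The 250 bases before the start of each are given 5′ to 3′ along the gene's strand, with the match in capitals.
Lgals9, chr11:78984925-78985174 (-): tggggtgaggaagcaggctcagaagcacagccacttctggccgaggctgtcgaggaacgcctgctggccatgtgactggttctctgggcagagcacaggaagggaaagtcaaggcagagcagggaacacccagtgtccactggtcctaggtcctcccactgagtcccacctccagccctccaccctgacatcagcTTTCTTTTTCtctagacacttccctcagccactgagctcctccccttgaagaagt
Lgals3bp, chr11:118401960-118402209 (-): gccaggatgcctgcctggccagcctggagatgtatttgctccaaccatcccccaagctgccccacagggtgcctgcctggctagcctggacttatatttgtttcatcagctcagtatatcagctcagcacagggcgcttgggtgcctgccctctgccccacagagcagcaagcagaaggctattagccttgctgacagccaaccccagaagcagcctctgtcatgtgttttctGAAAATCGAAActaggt

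The co-variation was measured over the 14 IgG control and non-responder tumors, since the responders stood apart, with 21 pairs of members tested. Lgals9 and Lgals3bp had a Pearson r of 0.847 (permutation p = 4e-05, adjusted p = 8.4e-04) and a Spearman rho of 0.864 (permutation p = 8e-05, adjusted p = 0.00168). The r was 0.783 without the 2 tumors farthest from the median of Lgals9. It was 0.893 within the IgG controls, 0.833 within the non-responders, and 0.761 over the 11 tumors without high mitochondrial share, where the permutation adjusted p rose to 0.0781.

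Lgals1 and Lgals3bp moved in opposite directions. Over the 14 tumors the r was -0.701 (permutation p = 0.0059, adjusted p = 0.0310) and the rho -0.701 (permutation p = 0.00671, adjusted p = 0.0470). It was -0.567 without the 2 tumors farthest from the median of Lgals1, -0.688 within IgG controls and -0.894 within non-responders. Over the 11 tumors without high mitochondrial share it was -0.850 (permutation adjusted p = 0.0248), while the rho of -0.809 did not pass there (permutation adjusted p = 0.0863). IgG control replicate 7 showed it plainly, with the highest Lgals1 of all tumors (2732 CPM) and a lower Lgals3bp than every other tumor but IgG control replicate 1 (109.9 CPM).

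The other pairs that passed over 14 tumors did not pass without the 3 tumors of high mitochondrial share. Lgals3 and Lgals4 had an r of 0.814 (permutation p = 1.4e-04, adjusted p = 0.00147) and a rho of 0.811 (permutation p = 9.1e-04, adjusted p = 0.00955), an r of 0.655 without the 2 farthest tumors, 0.942 within IgG controls and 0.516 within non-responders. Over the 11 other tumors the r was 0.664 (permutation adjusted p = 0.155). Lgals4 and Lgals9 had an r of -0.726 (permutation p = 0.00399, adjusted p = 0.0279) but a rho of -0.398 (permutation p = 0.160, adjusted p = 0.559), an r of -0.197 without the 2 farthest tumors, -0.682 and -0.873 within the groups, and 0.206 over the 11 other tumors. In 17 of 21 pairs the adjusted p missed the threshold.

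**Figure D4:**
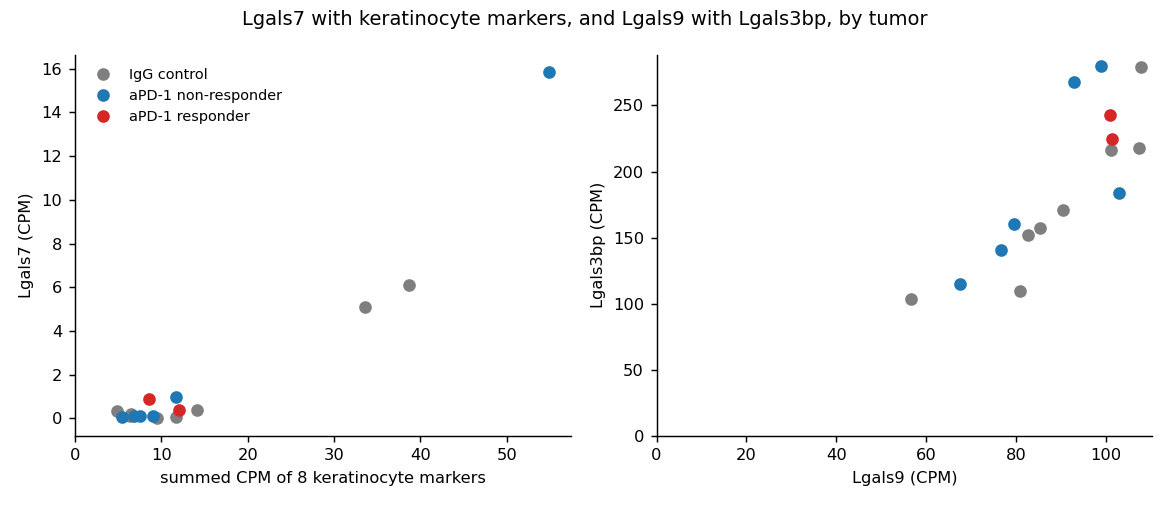
Left, Lgals7 against the summed level of 8 keratinocyte markers, and right, Lgals3bp against Lgals9, all in CPM, each point a tumor colored by group. The 3 tumors with Lgals7 of 5.09 CPM or more are the 3 with marker sums of 33.6 CPM or more, and Lgals9 and Lgals3bp rise together in the IgG control and non-responder tumors, with the 2 responders in the same cloud.

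Members were also set against 9 measures of each tumor, 63 pairs in all, of which 12 passed over 14 tumors. Of these, 6 pair Lgals3, Lgals4, Lgals8 or Lgals9 with the mitochondrial share or the total counts, by which the 3 tumors form a cluster of their own, so no pooled r is given. Within the 11 other tumors the r with the mitochondrial share was 0.211 for Lgals3, 0.209 for Lgals4 and 0.217 for Lgals9, and that with total counts was -0.354 for Lgals4, 0.531 for Lgals8 and 0.165 for Lgals9, none of which passed. Lgals7 followed the mean log2 CPM of the keratinocyte markers, with an r of 0.969 (permutation p = 2e-05, adjusted p = 0.00126), a rho of 0.811 (permutation p = 8.1e-04, adjusted p = 0.0328), 0.927 without the 2 farthest tumors, 0.953 within IgG controls, 0.991 within non-responders, and 0.972 over the 11 tumors without high mitochondrial share (permutation adjusted p = 0.00252). It was the only 1 of the 63 pairs that passed over those 11 tumors.

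For 10 type I interferon stimulated genes, the r of Lgals9 and Lgals3bp depended on the 3 tumors of high mitochondrial share. Over 14 tumors, Lgals9 had an r of 0.0307 with their mean level (permutation p = 0.918, adjusted p = 0.946) and a rho of 0.0418 (permutation p = 0.892, adjusted p = 0.937). Over the 11 others the r was 0.837 (permutation p = 0.00334, adjusted p = 0.0886) and the rho 0.627 (permutation p = 0.0441, adjusted p = 0.311), with 0.831 once the 2 farthest were left out. Lgals3bp went from 0.262 (permutation adjusted p = 0.648) to 0.795 (permutation p = 0.00422, adjusted p = 0.0886), with a rho of 0.764 over the 11 tumors. Neither pair passed the adjustment, with those 3 tumors or without them. Lgals3 had an r of 0.683 over 14 tumors (permutation p = 0.00741, adjusted p = 0.0424), a rho of 0.802 (permutation p = 0.00104, adjusted p = 0.0328), 0.612 without the 2 farthest, 0.625 and 0.660 within the groups, and 0.571 over the 11 tumors (permutation adjusted p = 0.281).

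Macrophage markers were low in the tumors of high mitochondrial share, with sums of 1370.4, 1476 and 1568 CPM over 10 genes against 1803 to 2806 CPM in the 11 other control and non-responder tumors. Over 14 tumors Lgals9 had an r of 0.816 with their mean level (permutation p = 5e-04, adjusted p = 0.00788) and a rho of 0.644 (permutation p = 0.0146, adjusted p = 0.103). It fell to 0.506 without the 2 farthest tumors and to 0.305 over the 11 tumors (permutation adjusted p = 0.651), with 0.821 and 0.913 within the groups as labelled. The macrophage markers also passed over 14 tumors with Lgals3bp (r = 0.735, permutation adjusted p = 0.0199), Lgals4 (r = -0.738, permutation adjusted p = 0.0271) and Lgals8 (r = 0.666, permutation adjusted p = 0.0473). Their rhos were 0.635, -0.376 and 0.684, none of which passed. Over the 11 tumors the r values were 0.488, 0.446 and 0.340, and none passed, so the relations of members to macrophage markers rested on those 3 tumors.

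With 7 members tested, the count of called members is too small to set against the shares of all genes and is no result about the family. Between responders and non-responders, 15.4% of the 18251 genes tested were higher at an adjusted p below 0.05 in edgeR and 4.34% were lower. Of the 7 members tested, 1 (Lgals1) was lower and 0 were higher. Lgals1 also passed the study's further threshold of a log2 fold change beyond 1, as did 0.663% of genes on the lower side. All non-responders exceeded both responders in 13.2% of genes and in 2 of the 7 members (Lgals1, Lgals3), and both responders exceeded all of them in 21.5% of genes and in none of the 7. Between responders and IgG controls, 17.7% of genes were higher and 5.17% lower, with 1 of the 7 members lower (Lgals1) and 0 higher. Both responders lay below all IgG controls in 9.67% of genes and in 1 member, and above them in 19.3% of genes and in none.

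No member passed between non-responders and IgG controls, which differ in the antibody and in the selection by CD8 staining, or with all aPD-1 tumors pooled, which differ from the controls in the antibody. Between non-responders and IgG controls, 0.0% of the genes passed in edgeR (694 genes at an unadjusted p below 0.05) and 0 of the 7 members, and Lgals3 had the smallest unadjusted p of the members, 0.0689. DESeq2 also passed 0 of the members. With all 8 aPD-1 tumors against the 8 IgG controls, 0.0% of the genes passed in edgeR (2463 at an unadjusted p below 0.05) and 0 of 7 members, and the largest log2 fold changes among members were 0.59 (SE 1.26) for Lgals7 and 0.55 (SE 0.38) for Lgals4. These comparisons share the IgG controls.

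**Figure D5:**
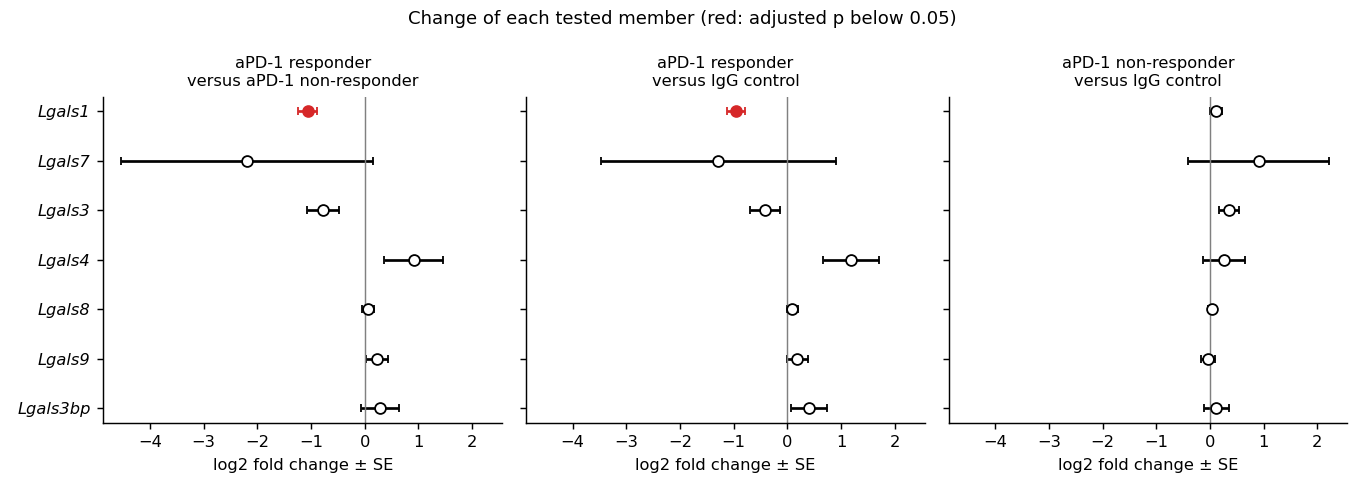
Log2 fold change (± SE, edgeR) of the 7 members that passed the filter on low counts, in the 3 comparisons of groups, with members at an adjusted p below 0.05 in red. Only Lgals1 is red, at -1.06 and -0.95 in the responders, and the bar of Lgals7 is wide because its level rests on single tumors.

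Other genes of the galectin fold and the partners of galectins were counted from fixed lists. Of 4 further galectin fold genes, 3 were in the table and 2 were tested. Lgals12, a galectin of fat cells, was at 21.4 and 4.11 CPM in the responders and at most 0.844 CPM in all other tumors, with a log2 fold change against non-responders of 6.09 (SE 0.93, edgeR adjusted p = 1.5e-04). The fat cell markers moved with it: all 6 were higher in responders than in non-responders, beside 15.4% of all genes. Their median log2 fold change was 5.49 against 0.02 over all genes. Adipoq was at 189 and 31.0 CPM in the responders against at most 9.17 CPM elsewhere. The part of fat cells in the level of Lgals12 was not tested. Lgalsl, a galectin-related gene without sugar binding, was at 16.6 and 12.8 CPM in the responders and 9.50 ± 2.06 CPM (SD, n = 6) in non-responders (edgeR adjusted p = 0.111).

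Glycoproteins known to bind galectins were counted next. Of 20 counter-receptors, all tested, 6 were higher and 0 lower in responders than in non-responders, beside 15.4% of all genes higher, with a median log2 fold change of 0.22 (0.02 over all genes). The counts were the same against IgG controls, beside 17.7% of all genes higher. The smallest p values belonged to Ptprc (CD45), Cd2, Cd7 and Cd40, which are genes of leukocytes. Ptprc was at 496 ± 87.4 CPM (SD, n = 2) in responders and 124 ± 16.0 CPM (n = 6) in non-responders, a log2 fold change of 1.996 (SE 0.16). Cd2 and Cd7, on T cells, were at 35.6 ± 8.67 and 5.07 ± 0.0250 CPM against 2.61 ± 1.18 and 0.272 ± 0.203 CPM. T cell markers as a list, which also holds Cd2, moved the same way, 8 of 8 higher. The part of T cells in these values was not tested.

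Genes that build or cap the sugar ligands were called at shares near or under that of all genes. Of 13 enzymes of N-glycan branching and N-acetyllactosamine synthesis, 1 was higher and 0 were lower in responders than in non-responders, beside the 15.4% of all genes that were higher. It was Mgat3, which adds the bisecting N-acetylglucosamine, at 1.95 ± 0.298 against 0.787 ± 0.262 CPM (log2 fold change 1.31, SE 0.41, edgeR adjusted p = 0.0304). Mgat1, which starts complex N-glycans, passed against IgG controls as well as Mgat3 (log2 fold change 0.40, SE 0.13, edgeR adjusted p = 0.0297), and missed against non-responders (edgeR adjusted p = 0.0543). Of 7 sialyltransferases tested, 1 was higher, beside the same 15.4% of all genes. It was St6gal1, whose α2,6-linked sialic acid is known to block binding of the Lgals1 protein, at 67.7 ± 27.9 CPM (SD, n = 2) in responders and 17.9 ± 6.13 CPM (n = 6) in non-responders, a log2 fold change of 1.91 (SE 0.34, edgeR adjusted p = 6.4e-04). St6gal1 is also abundant in B cells, and the 8 B cell markers were all higher in the responders. The part of B cells in the level of St6gal1 was not tested.

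The remaining lists counted markers of cell types and pathways, and assigned no member to any of them. Against non-responders, 1 of 10 macrophage markers was higher in the responders (Mrc1), 1 of 8 fibroblast markers (Lum), 4 of 7 endothelial markers, 5 of 6 tested simple epithelial markers and 1 of 9 interferon gamma targets (Ciita), and none of these lists had a lower member. Beside the 15.4% of all genes that were higher, the counts of macrophage markers, fibroblast markers and interferon gamma targets against non-responders are no result about those lists. The epithelial markers that rose, such as Krt8 (22.5 ± 13.3 against 0.346 ± 0.378 CPM) and Epcam (7.98 ± 3.77 against 0.401 ± 0.241 CPM), stayed low in CPM. None of 10 type I interferon stimulated genes, 10 hypoxia genes and 6 tested keratinocyte markers passed in either direction, with median log2 fold changes of -0.18, -0.41 and -0.54. Against IgG controls, 4 of 10 macrophage markers and 4 of 9 interferon gamma targets were higher, Tap1 among the latter, beside 17.7% of all genes. Fibroblast, endothelial and simple epithelial markers gave the same counts as against non-responders. The macrophage markers summed to 2827 to 3010 CPM in responders, 1476 to 2806 CPM in non-responders and 1370 to 2297 CPM in IgG controls. The log2 fold change of Lgals9 in responders against IgG controls was 0.18.

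The genes whose level was most like each member's over the 14 tumors were taken from 9872 genes with a mean of at least 10 CPM, as a description without a test. Lgals1 was most like Ppia (r = 0.940), the gene of cyclophilin A, and this r was 0.985 over the 11 tumors without high mitochondrial share. Lgals9 was most like Ifih1 (r = 0.966), the gene of the RNA sensor MDA5, with 0.908 over the 11 tumors. Lgals3bp was most like Laptm5 (r = 0.955), a lysosomal protein gene of blood cells, and App (r = 0.940), with 0.948 and 0.920 over the 11 tumors. Lgals3 was most like Fxyd5 (r = 0.946), and Lgals8 most like Stk38l (r = 0.940). For Lgals4 it was Phf1 (r = 0.981), which fell to 0.893 over the 11 tumors, and for Lgals7 it was Rbbp8 (r = 0.833).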

How the data were processed

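RNA of 16 tumors was sequenced after poly(A) selection with a strand-specific kit. The values were RSEM expected counts per gene, as the authors deposited them: reads were aligned with STAR 2.6 and quantified with RSEM 1.3.0 on GRCm38 with Ensembl 91. RSEM shares reads between similar genes, so 7.84% of the values were not whole, and they were rounded. The 92 spike-in entries, at most 185 counts in a tumor, were left out. Symbols, positions and exon lengths came from GENCODE release 21 (GRCm38), which matched 53274 of 53465 identifiers.

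Tests used edgeR 4.0.16 (R 4.3.3) with TMM scaling, the default filter on low counts over the 3 groups and the robust quasi-likelihood test, with all 16 tumors in 1 fit and Benjamini-Hochberg adjustment over 18251 genes. The pooled aPD-1 comparison used 2 groups. A gene passed at an adjusted p below 0.05. Single genes were also compared by exact permutation of log2 CPM with a prior count of 2, and correlations by 100000 permutations (scipy 1.17.1). DESeq2 1.42.0, other scalings, filters, samples in the fit and left-out tumors were the alternatives. Leaving out the 3 tumors of high mitochondrial share was chosen after seeing the data. The test was tried on simulated data.

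Total counts of 26603477 to 39948874 set the precision. Sources name 1 tumor per mouse and no batches, so p-values measure the spread between these tumors. The members and lists were chosen with earlier results of these data known. All members were described, with at most 4 examples per list by smallest p, the 3 genes most like each member, and genes needed to check a library. Krt14, Krt5, Adipoq, Mrc1, Lum, Ciita, Tap1, Krt8 and Epcam were named beside marker counts.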

Additional observations from a re-analysis of the deposited data

Results flagged for a closer look

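Single tumors lay far from the rest of their group in 6 of 16 checks of a member within the IgG control or non-responder group, by the gap to the nearest tumor over the whole range. For normally distributed values, chance gives such a gap in about 1 in 20 groups. The check used CPM without logarithm, so members with few counts or skewed levels need not follow that rate. IgG control replicate 1 stood apart in Lgals3 at 895 CPM and in Lgals4 at 6.54 CPM, and it is the tumor with the highest mitochondrial share of counts, 7.60%. Its part in these values was not tested. Non-responder replicate 12 stood apart in Lgals7 at 15.8 CPM, with keratinocyte markers summing to 55.0 CPM. IgG control replicate 7 stood apart in Lgals1 at 2732 CPM, on the side away from the responders. The other cases were Lgals2, at 0.0600 CPM in IgG control replicate 4 and 0.0916 CPM in non-responder replicate 9, where 2 and 3 counts stood beside 0 or 1.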

How the results depend on the processing

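Of the refits of a member's log2 fold change under an alternative, 496 kept direction and side of the threshold, 19 changed sign and 6 passed where the value reported had not. Lgals1 passed in responders under every alternative, with log2 fold changes against non-responders of -1.22 to -1.02 over left-out tumors (edgeR adjusted p up to 0.0188). The number of passing members between responders and non-responders was 1, but 2 under DESeq2 and with only the 2 groups compared (Lgals1, Lgals3), and 3 without the 3 tumors of high mitochondrial share (Lgals4 added). Between responders and IgG controls it was 1 to 2 over left-out tumors and 2 without those 3 tumors, with Lgals4 added. Leaving out 1 responder assumes that the other varies like the remaining groups.

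Sign changes were in values near 0 or in Lgals7. Lgals8 in responders against non-responders was -0.0146 with no filter on low counts and -0.0672 without the 3 tumors, and Lgals9 in non-responders against IgG controls was 2.6e-04 without them. Over left-out tumors, responders against non-responders ran from -2.94 to 1.15 for Lgals7 and -0.0349 to 0.102 for Lgals8, and Lgals8 against IgG controls from -0.0114 to 0.112. Non-responders against IgG controls ran from -2.43 to 1.70 for Lgals7, -0.00914 to 0.0669 for Lgals8, -0.108 to 0.0189 for Lgals9 and -0.0208 to 0.247 for Lgals3bp. The pooled aPD-1 comparison ran from -2.01 to 1.39 for Lgals7 and -0.0659 to 0.0677 for Lgals9. The cause was not tested.

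Correlations between members changed sign for Lgals3 and Lgals8, at 0.0430 with scaling without immunoglobulin and mitochondrial genes and 0.133 without IgG control replicate 1, and for Lgals1 and Lgals8, at -0.0381 without that replicate. Without the 3 tumors, the sign changed for Lgals1 with Lgals4 (-0.389), for Lgals7 with Lgals3 (0.0824) and Lgals9 (-0.0641), for Lgals3 with Lgals8 (0.633), Lgals9 (0.124) and Lgals3bp (0.295), for Lgals4 with Lgals8 (0.0434), Lgals9 (0.206) and Lgals3bp (0.556), and for Lgals8 with Lgals9 (-0.0330) and Lgals3bp (-0.262). Without IgG control replicate 1, Lgals1 with Lgals9 came to -0.743 (permutation adjusted p = 0.0290) and Lgals4 with Lgals9 to -0.510 (permutation adjusted p = 0.227). Without the 3 tumors, Lgals3 with Lgals4 came to 0.664 and Lgals9 with Lgals3bp to 0.761, both past the threshold no longer. No paired analysis was possible because the groups share no replicate numbers. Depth limits Lgals2, with 0 to 3 counts per tumor, and Lgals7 in most tumors, and 2 responders limit each comparison with them.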
